A study of Mus musculus with 8 samples.

Results

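Complement components and regulators were followed through 8 genes, C3, Cfb, C4b, C1ra, C1s1, Serping1, Cd55 and C3ar1, out of 27249 genes in the table of normalized counts. They were picked by symbol, with earlier results of these data known, and each of the 8 symbols matched 1 row. Their counts beside the shares of all genes are therefore descriptions. Polyadenylated RNA was sequenced from smooth muscle cells of the mouse vessel wall in primary culture, cells that contract the artery and can take on bone-like features. A pair of groups overexpressed green fluorescent protein (GFP) and carried the genotype label WT, and the other pair overexpressed THOC5, a subunit of the complex that couples transcription to export of mRNA from the nucleus. Growth medium was set against osteogenic medium, for which the series design names inorganic phosphate (Pi) for 6 days. The 4 groups, called GFP growth, GFP osteogenic, THOC5 growth and THOC5 osteogenic below, had 2 libraries each. All 8 libraries therefore came from cells carrying an overexpressed gene. Neither the vector and promoter that drove it nor the number of separate cell preparations is stated in the labels, so p-values measure the spread between libraries, which may be technical.

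Complement is a cascade of plasma proteins that marks surfaces for clearance and calls in inflammatory cells. The classical pathway is started by the C1 complex, in which C1r activates C1s and C1s cleaves C4 and C2. All pathways meet at C3, which the alternative pathway amplifies through factor B. Secreted and membrane-bound regulators hold the cascade in check, and small fragments released from C3 and C5 act on receptors of the G protein-coupled kind. The liver makes most plasma complement, and stromal cells, vascular smooth muscle cells among them, make components locally.

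The genes lie on 4 mouse chromosomes (GRCm38). C1ra (chromosome 6, 124512405 to 124523443, plus strand) and C1s1 (chromosome 6, 124530345 to 124542359, minus strand) are neighbours, 6.90 kb apart. C3ar1 (122847138 to 122856161, minus strand) is on the same chromosome 6. C4b (chromosome 17, 34728380 to 34743882) and Cfb (34856374 to 34862518) lie 112 kb apart, and C3 (57203970 to 57228136) is elsewhere on chromosome 17, all 3 on the minus strand. Serping1 lies on chromosome 2 (84765387 to 84775444) and Cd55 on chromosome 1 (130439027 to 130462744), both on the minus strand.

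RefSeq promoter sequences of GRCm38.p6 were matched for 5 of the 8 genes, C3, C1ra, C1s1, Cd55 and C3ar1. Those of 3 genes are shown because they belong to the gene that fell most in GFP cells, to a protease gene that fell with it, and to the receptor gene that rose. Each line gives the bases ahead of the farthest upstream start that GENCODE or RefSeq annotates for the gene, 5′ to 3′ on the gene's minus strand, and capitals mark matches on either strand to TTNNGNAA, the loose form of a site bound by the C/EBP transcription factors. The stretches are chr17:57228137-57228386 for C3, chr6:124542393-124542609 for C1s1 and chr6:122856162-122856407 for C3ar1. The C1s1 stretch ends 33 bases ahead of the GENCODE gene, and the other stretches border it.
C3: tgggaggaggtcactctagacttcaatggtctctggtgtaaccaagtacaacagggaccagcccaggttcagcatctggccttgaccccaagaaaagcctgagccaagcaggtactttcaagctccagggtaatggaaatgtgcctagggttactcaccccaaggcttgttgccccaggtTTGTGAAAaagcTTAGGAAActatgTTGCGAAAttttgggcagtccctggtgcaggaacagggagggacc
C1s1: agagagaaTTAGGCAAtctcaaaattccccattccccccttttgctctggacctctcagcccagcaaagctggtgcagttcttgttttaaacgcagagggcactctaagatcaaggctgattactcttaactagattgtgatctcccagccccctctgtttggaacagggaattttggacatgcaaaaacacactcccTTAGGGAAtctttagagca
C3ar1: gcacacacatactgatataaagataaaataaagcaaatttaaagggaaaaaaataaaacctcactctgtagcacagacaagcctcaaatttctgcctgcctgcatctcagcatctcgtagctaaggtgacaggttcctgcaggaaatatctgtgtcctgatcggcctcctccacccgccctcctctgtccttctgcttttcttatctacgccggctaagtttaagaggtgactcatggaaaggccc
The C3 stretch held 3 matches, TTGTGAAA, TTAGGAAA and TTGCGAAA, in the last 70 bases before the start. The C1s1 stretch held 2 matches, TTAGGCAA and TTAGGGAA, and the C3ar1 stretch held none. In windows from 250 bases before to 50 after the RefSeq start, C1ra held 3 matches and Cd55 held none. The RefSeq start of C1ra, 124512621, lies inside the GENCODE gene, and all 3 matches fall within that gene. Among 32851 mouse promoters of that length, 40.7% held at least 1 such match, 13.6% at least 2 and 3.60% at least 3, so 1 match is common. Of the other motifs searched on both strands, TTCNNNGAA (GAS, a STAT site) was in 8.30% of all promoters, the interferon site ISRE in 3.44% and the NF-kB site in 4.51%. GAS and ISRE forms can overlap each other and the C/EBP form. Among the 5 genes there was 1 match to these 3 motifs, a GAS in the C1ra window. A match describes letters in the window and is no evidence of binding.

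The libraries held between 7058681 and 10581042 reads, and 3 reads, the lowest level read as detection, equalled 2.59 to 3.99 normalized counts. Thoc5 stood at 458 and 471 normalized counts in the GFP growth group, at 650 and 615 in the GFP osteogenic group, at 2155 and 1406 in the THOC5 growth group and at 1780 and 1937 in the THOC5 osteogenic group, so all THOC5 libraries stood above all GFP libraries. The reads do not tell the introduced from the resident Thoc5. The 2 libraries of the GFP osteogenic group were separated from the remaining 6 along the leading principal component of all genes (32.6% of the variance). Of 9 smooth muscle markers, including Acta2 and Myh11, all had a row, and their summed normalized count ranged from 25087 to 29299 in the GFP growth group, 12022 to 13920 in the GFP osteogenic group, 31463 to 32205 in the THOC5 growth group and 25672 to 27660 in the THOC5 osteogenic group. The liver markers Alb and Apoa1 stood at or under 3 reads in every library. Fgb, also a listed liver marker, had 7 reads in THOC5 growth replicate 2 and at most 2 in any other library.

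From growth to osteogenic medium in GFP cells, 5 of the 8 genes fell (C3 by the most, and C4b, C1ra, C1s1 and Serping1) and 1 rose (C3ar1), with an adjusted p under 0.05 in limma after Benjamini-Hochberg adjustment over 22575 genes. In this comparison 20.8% of all genes tested passed, 10.3% higher and 10.6% lower. The median change of the 8 genes was -1.60 on the log2 scale, and that of all genes was 0. The libraries of the 2 media did not overlap for any of the 8 genes: 7 lay lower in osteogenic medium, an order found in 28.9% of all genes, and C3ar1 lay higher, an order found in 27.7%. In bulk RNA, fewer cells that express a gene and less RNA per cell cannot be told apart.

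**Figure D1:**
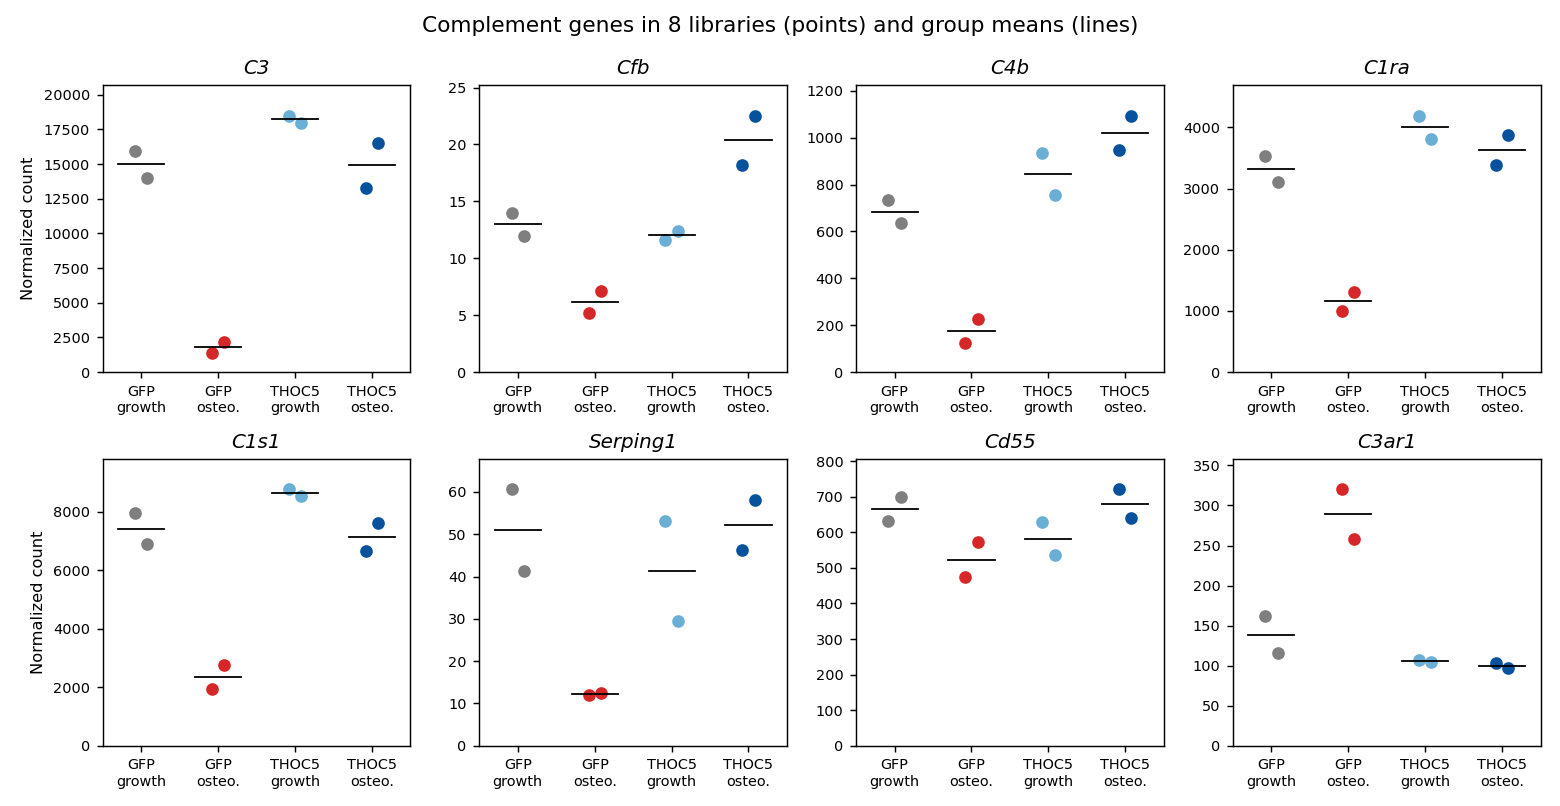
Normalized count of each of the 8 complement genes on a linear axis from 0, with 1 point per library and a line at the mean of the 2 libraries in each group. C3 stood at 1389 and 2199 in the GFP osteogenic group and at 13283 or more in the other 6 libraries, and C3ar1 stood highest in the GFP osteogenic group.

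C3 encodes the protein on which all complement pathways converge. Its normalized count was 15924 and 14017 in the GFP growth group, 1389 and 2199 in the GFP osteogenic group, 18485 and 17970 in the THOC5 growth group, and 13283 and 16531 in the THOC5 osteogenic group. The group means were 14971 ± 1348, 1794 ± 573, 18227 ± 365 and 14907 ± 2297 (SD, n = 2 each). The 2 libraries of the GFP osteogenic group lay below all others, which stood at 13283 or more. C3 fell by 3.09 ± 0.18 (SE) on the log2 scale in GFP cells, 8.54-fold on the scale of the value plus 1 (adjusted p = 2.75e-06). In THOC5 cells the change was -0.30 ± 0.18, with a 95% interval of -0.69 to 0.10 (adjusted p = 0.903). In osteogenic medium C3 was 8.47-fold higher in THOC5 than in GFP cells (log2 difference 3.08 ± 0.18, adjusted p = 2.44e-06). This comparison and the change in GFP cells share the 2 libraries of the GFP osteogenic group, for C3 and for every gene below. Among all genes, C3 ranked 32nd to 49th by normalized count in 6 libraries and 1332nd and 648th in the GFP osteogenic group. It took 0.138% to 0.187% of reads in the 6 libraries, against 0.0163% and 0.0254%.

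Cfb encodes factor B, the protease that joins C3b in the alternative pathway convertase, and it was the least abundant of the 8 genes. Its normalized count was 14 and 12 in the GFP growth group, 5.19 and 7.16 in the GFP osteogenic group, 11.6 and 12.4 in the THOC5 growth group, and 18.2 and 22.5 in the THOC5 osteogenic group. These values rest on 6 to 24 reads per library, and the annotated gene Gm20547 overlaps Cfb. The GFP libraries in osteogenic medium were lowest and the THOC5 libraries in osteogenic medium highest, without overlap. The change in GFP cells did not pass (log2 -0.97 ± 0.37, adjusted p = 0.0870), nor did that in THOC5 cells (0.71 ± 0.37, adjusted p = 0.882). In osteogenic medium Cfb was 2.99-fold higher in THOC5 cells (log2 difference 1.58 ± 0.37, adjusted p = 0.00962). That call was lost without GFP osteogenic replicate 1 (adjusted p = 0.0745), without THOC5 osteogenic replicate 2 (adjusted p = 0.0965) and with only the 4 libraries compared in the fit (adjusted p = 0.0545).

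C1ra and C1s1 encode the paired proteases of the C1 complex. C1ra stood at 3526 and 3101 normalized counts in the GFP growth group, 1002 and 1308 in the GFP osteogenic group, 4191 and 3815 in the THOC5 growth group, and 3390 and 3870 in the THOC5 osteogenic group. C1s1 stood at 7951 and 6883, 1952 and 2745, 8762 and 8532, and 6644 and 7621 in the same order. For both genes the GFP libraries in osteogenic medium were lowest, and the other 6 stood at 3101 or more for C1ra and at 6644 or more for C1s1. C1ra fell 2.89-fold in GFP cells (log2 -1.53 ± 0.13, adjusted p = 1.92e-05) and C1s1 fell 3.19-fold (log2 -1.68 ± 0.14, adjusted p = 2.22e-05). In THOC5 cells the changes were -0.14 ± 0.13 for C1ra (adjusted p = 0.928) and -0.28 ± 0.14 for C1s1 (adjusted p = 0.882). In osteogenic medium, C1ra was 3.16-fold higher (adjusted p = 1.05e-05) and C1s1 3.07-fold higher (adjusted p = 2.34e-05) in THOC5 than in GFP cells. The ratio of C1s1 to C1ra reads stayed between 1.95 and 2.25 in all 8 libraries. The ratio of C3 to C1s1 reads was 2.00 to 2.17 in 6 libraries and 0.712 and 0.801 in the GFP osteogenic group. C1ra shares 48.0% of its 50-base stretches with its near copy C1rb, and C1s1 shares 21.8% with C1s2, so reads could be split between copies. C1rb and C1s2 stood at 29.1 normalized counts or less in every library.

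C4b encodes complement C4, which C1s cleaves. It stood at 732 and 634 normalized counts in the GFP growth group, 125 and 227 in the GFP osteogenic group, 933 and 757 in the THOC5 growth group, and 948 and 1094 in the THOC5 osteogenic group. The GFP libraries in osteogenic medium were lowest, and the THOC5 libraries in osteogenic medium were highest. C4b fell 4.02-fold in GFP cells (log2 -2.01 ± 0.22, adjusted p = 1.03e-04) and its change in THOC5 cells was 0.28 ± 0.22 (adjusted p = 0.928). In osteogenic medium it was 6.00-fold higher in THOC5 cells (log2 difference 2.59 ± 0.22, adjusted p = 1.82e-05). The near copy C4a shares 34.6% of the 50-base stretches of C4b. C4b had 69.8 to 161 reads per C4a read in 6 libraries, and 14.1 and 16.1 in the GFP osteogenic group. C4a itself stood at 5.79 to 16.1 normalized counts, and its change in GFP cells was 0.39 ± 0.46 (adjusted p = 0.620).

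Serping1 encodes the C1 inhibitor, which blocks C1r and C1s. It stood at 60.6 and 41.2 normalized counts in the GFP growth group, 12.1 and 12.5 in the GFP osteogenic group, 53.1 and 29.6 in the THOC5 growth group, and 46.3 and 58.2 in the THOC5 osteogenic group. The GFP libraries in osteogenic medium, with 14 reads each, lay below all others. Serping1 fell 3.83-fold in GFP cells (log2 -1.94 ± 0.32, adjusted p = 0.00136), and its change in THOC5 cells was 0.38 ± 0.32 (adjusted p = 0.928). In osteogenic medium it was 3.98-fold higher in THOC5 cells (log2 difference 1.99 ± 0.32, adjusted p = 0.00104). In GFP cells the inhibitor transcript thus fell beside the transcripts of both proteases it blocks. Its level per kilobase of exon in the GFP growth group was 21.9, against 1112 for C1ra and 2370 for C1s1.

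Cd55 encodes decay-accelerating factor, a membrane protein that breaks up C3 convertases, and it varied least of the 8 genes. It stood at 633 and 699 normalized counts in the GFP growth group, 473 and 572 in the GFP osteogenic group, 628 and 536 in the THOC5 growth group, and 721 and 640 in the THOC5 osteogenic group. The GFP groups did not overlap, but the GFP libraries in osteogenic medium overlapped those of the THOC5 growth group. Its change between media was -0.35 ± 0.12 on the log2 scale in GFP cells (adjusted p = 0.0595) and 0.23 ± 0.12 in THOC5 cells (adjusted p = 0.888), and neither passed. In osteogenic medium Cd55 was 1.31-fold higher in THOC5 cells (log2 difference 0.38 ± 0.12, adjusted p = 0.0408). This call was lost when counts were scaled to library totals (log2 difference 0.21, adjusted p = 0.264), with any value above 0 admitted (adjusted p = 0.0880) and with only the 4 libraries compared in the fit (adjusted p = 0.135). It was also lost without GFP osteogenic replicate 1 (adjusted p = 0.301), THOC5 osteogenic replicate 1 (adjusted p = 0.265), THOC5 osteogenic replicate 2 (adjusted p = 0.105), GFP growth replicate 1 (adjusted p = 0.0928) or GFP growth replicate 2 (adjusted p = 0.0929). In GFP cells Cd55 passed without GFP osteogenic replicate 2 (log2 -0.49, adjusted p = 0.0478). An antisense gene, Gm16083, overlaps Cd55 and stood at 0.965 to 3.99 normalized counts, and the library kit does not mark strand.

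C3ar1 encodes the receptor for C3a, the small fragment cut from C3, and it was the 1 gene of the 8 that rose in GFP cells. It stood at 162 and 116 normalized counts in the GFP growth group, 320 and 258 in the GFP osteogenic group, 107 and 104 in the THOC5 growth group, and 104 and 96.7 in the THOC5 osteogenic group. The GFP libraries in osteogenic medium were highest and the 4 THOC5 libraries lowest. C3ar1 rose 2.09-fold in GFP cells (log2 1.07 ± 0.17, adjusted p = 0.00128), and its change in THOC5 cells was -0.08 ± 0.17 (adjusted p = 0.982). In osteogenic medium it was 2.86-fold lower in THOC5 than in GFP cells (log2 difference -1.51 ± 0.17, adjusted p = 1.27e-04). Reads of C3 per read of its receptor gene were 98.3 to 173 in 6 libraries and 4.34 and 8.51 in the GFP osteogenic group. The receptor is known from macrophages, and the macrophage markers Ptprc and Adgre1 stood at or under 3 reads in every library. Csf1r, also a listed macrophage marker, stood at 64.9 to 102 normalized counts over the 8 libraries. The 6 macrophage markers with a row summed to 492 to 498 normalized counts in the GFP growth group, 458 to 476 in the GFP osteogenic group, 415 to 455 in the THOC5 growth group and 390 to 446 in the THOC5 osteogenic group. Of these, Cd68 rose (log2 0.56, adjusted p = 0.00729) and Lyz2 fell (log2 -0.67, adjusted p = 0.00300) in GFP cells. Their part in the result was not tested.

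**Figure D2:**
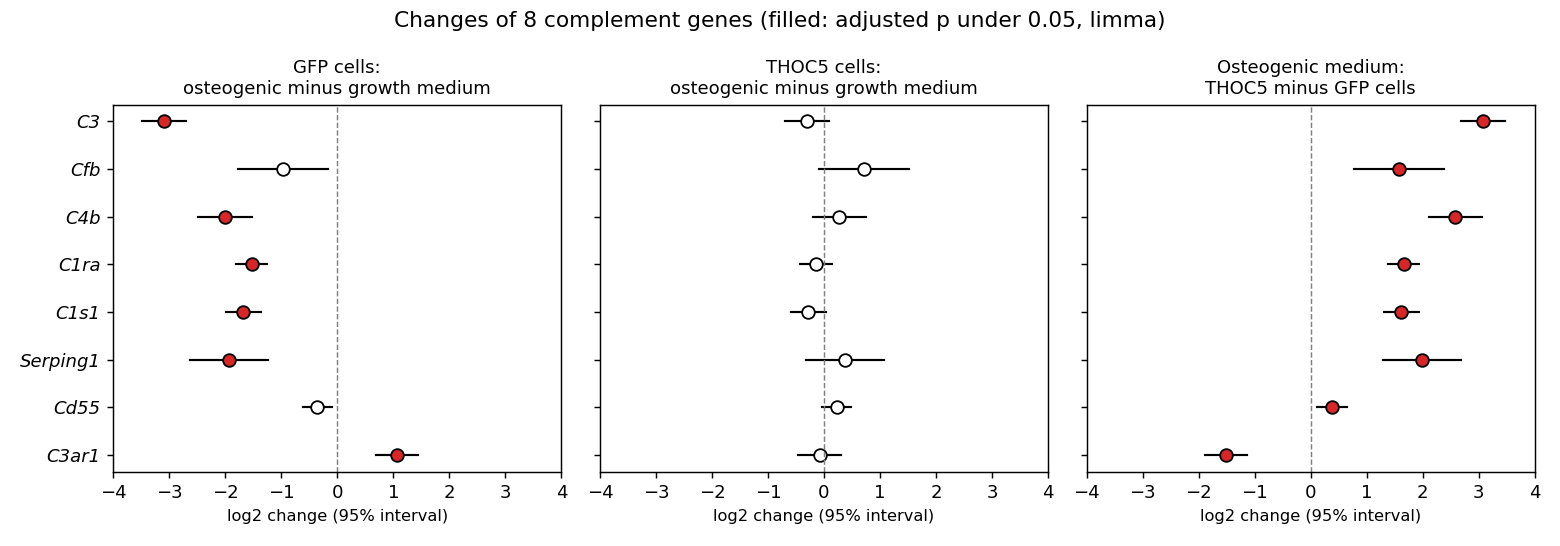
Change of each of the 8 complement genes on the log2(value + 1) scale, with bars for the 95% interval and filled points for an adjusted p under 0.05 in limma, in 3 comparisons. In GFP cells 5 genes fell and 1 rose, in THOC5 cells 0 passed, and in osteogenic medium 7 were higher and 1 lower in THOC5 cells.

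In THOC5 cells none of the 8 genes passed between the media in limma, edgeR or DESeq2, and 0.540% of all genes passed in limma. The changes lay between -0.30 and 0.71 on the log2 scale, with adjusted p between 0.882 and 0.982, and 0 of the 8 had an unadjusted p under 0.05. Their median change was 0.07, and that of all genes -0.01. With 2 libraries per group this does not show that the levels were equal: the 95% interval ran from -0.60 to 0.03 for C1s1 and from -0.10 to 1.51 for Cfb. C4b, Cfb and Cd55 were higher in both THOC5 libraries in osteogenic medium than in both in growth medium. C3, C1s1 and C3ar1 were lower in both. The shares of all genes in these 2 orders are not given here. In growth medium 0 of the 8 genes differed between THOC5 and GFP cells by limma, edgeR or DESeq2, with 0 at an unadjusted p under 0.05, and only Thoc5 itself, 0.00443% of all genes, passed in limma. C3, C4b, C1ra and C1s1 were higher in both THOC5 than in both GFP libraries in growth medium, an order found in 14.7% of all genes, with log2 differences of 0.29 ± 0.18, 0.30 ± 0.22, 0.27 ± 0.13 and 0.22 ± 0.14. The order of both libraries below both GFP libraries, found in 16.5% of all genes, held for Cd55 (-0.20 ± 0.12) and C3ar1 (-0.37 ± 0.17).

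In osteogenic medium all 8 genes differed between THOC5 and GFP cells in limma, 7 higher in THOC5 cells and C3ar1 lower, where 22.0% of all genes passed, 11.3% higher and 10.7% lower. The libraries of the 2 groups did not overlap for any of the 8 genes, where 30.8% of all genes lay wholly higher in THOC5 cells and 28.6% wholly lower. The median difference was 1.64 on the log2 scale over the 8 genes and 0 over all genes. All 8 also differed by edgeR and by DESeq2 on the recovered reads. The THOC5 osteogenic group was also set against the GFP growth group, where 0 of the 8 genes and 0.359% of all genes passed in limma. By edgeR and DESeq2 the count was 0 as well, and 2 of the 8 had an unadjusted p under 0.05, C4b (log2 difference 0.58 ± 0.22) and C3ar1 (-0.45 ± 0.17). For C3 the difference was -0.01, with a 95% interval of -0.41 to 0.38.

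The difference between the responses of THOC5 and GFP cells to the medium was tested as an interaction. It passed for 6 of the 8 genes, where 9.22% of all genes passed, 5.30% higher and 3.92% lower. The response was higher in THOC5 cells for C3 (2.80 ± 0.25 on the log2 scale, adjusted p = 2.87e-04), Serping1 (2.32 ± 0.45, adjusted p = 0.00943), C4b (2.28 ± 0.31, adjusted p = 0.00165), C1ra (1.39 ± 0.18, adjusted p = 0.00138) and C1s1 (1.39 ± 0.20, adjusted p = 0.00221). It was lower for C3ar1 (-1.14 ± 0.24, adjusted p = 0.0149). It did not pass for Cfb (1.68 ± 0.52, adjusted p = 0.0683) or Cd55 (0.58 ± 0.17, adjusted p = 0.0563), though Cd55 passed by edgeR (adjusted p = 0.0389) and DESeq2 (adjusted p = 0.0363). Without GFP growth replicate 1, 0 of the 8 genes and 0 of all genes passed, with C3 at 2.70 (adjusted p = 0.0514), C4b at 2.18, Serping1 at 2.04, C1ra at 1.29, C1s1 at 1.29 and C3ar1 at -1.38. Without GFP growth replicate 2, C3 alone of the 8 passed, and 103 of all genes did. The count over all genes, 2082 with every library, was 366 without THOC5 osteogenic replicate 2, 612 without GFP osteogenic replicate 1, 778 without THOC5 growth replicate 1 and 796 without THOC5 osteogenic replicate 1. The call for Serping1 was also lost without GFP osteogenic replicate 1 (adjusted p = 0.0736) or THOC5 osteogenic replicate 2 (adjusted p = 0.0947). That for C3ar1 was lost without any 1 of GFP osteogenic replicate 1, THOC5 growth replicate 1, THOC5 osteogenic replicate 1 or THOC5 osteogenic replicate 2 (adjusted p = 0.0682 to 0.114).

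Across the 8 libraries, which share the 4 groups, the log2 values of C3 correlated with those of C1s1 (Pearson r = 0.997, n = 8 libraries), C1ra (r = 0.996), C4b (r = 0.971), Serping1 (r = 0.925), Cfb (r = 0.846) and Cd55 (r = 0.666). The correlation of C3 with C3ar1 was -0.939. With the GFP osteogenic libraries standing apart, these values mostly describe that separation. Per kilobase of exon, the order of mean levels in the GFP growth group was C3 (2911), C1s1 (2370), C1ra (1112), Cd55 (137), C4b (120), C3ar1 (32.2), Serping1 (21.9) and Cfb (4.59). In the GFP osteogenic group C1s1 (751) stood first, followed by C1ra (387), C3 (349), Cd55 (108), C3ar1 (67.2), C4b (31.0), Serping1 (5.30) and Cfb (2.18). In the THOC5 growth group C3 (3544), C1s1 (2764) and C1ra (1343) led, ahead of C4b (148), Cd55 (120), C3ar1 (24.5), Serping1 (17.8) and Cfb (4.25). The THOC5 osteogenic group kept that order, from C3 (2898) down to Cfb. Of the 28 pairs of neighbours in these orders, 7 lay within their spread, meaning that the ranges of mean ± SD met (n = 2 each). They were Cd55 and C4b in the GFP growth group (137 ± 9.68 and 120 ± 12.1) and in the THOC5 growth group (120 ± 13.5 and 148 ± 21.8), and C1ra and C3 in the GFP osteogenic group (387 ± 72.6 and 349 ± 111). C3 and C1s1 did so in the THOC5 osteogenic group (2898 ± 447 and 2279 ± 221). C3ar1 and Serping1 did so in the GFP growth group (32.2 ± 7.61 and 21.9 ± 5.90), the THOC5 growth group (24.5 ± 0.504 and 17.8 ± 7.15) and the THOC5 osteogenic group (23.3 ± 1.14 and 22.5 ± 3.60).

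The complement system as a whole was read through a list of 54 genes, of which 41 had a row and 32 passed the filter on low values. In GFP cells 10 of the 32 fell and 1, C3ar1, rose, with a list median of -0.44 on the log2 scale, where 10.6% of all genes fell, 10.3% rose and the median was 0. Beyond the 8 genes, 5 of 24 fell and 0 rose, with a median of -0.28. The 5 were Clu, C4bp, C1rl, C1s2 and Csmd1. In the GFP osteogenic group C1s2, the near copy of C1s1, rested on 4 and 6 reads and Csmd1 on 4 and 8. The authors' deposited table gave C1s2 an adjusted p of 0.0564 in GFP cells. In THOC5 cells 0 of the 32 passed in limma, edgeR or DESeq2, and 2 had an unadjusted p under 0.05 in limma. In osteogenic medium 12 were higher and 2, C3ar1 and Cr1l, lower in THOC5 than in GFP cells, with a list median of 0.75, where 11.3% of all genes were higher, 10.7% were lower and the median was 0. Without the 8 genes, 5 of 24 were higher and 1 lower, with a median of 0.42.

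**Figure D3:**
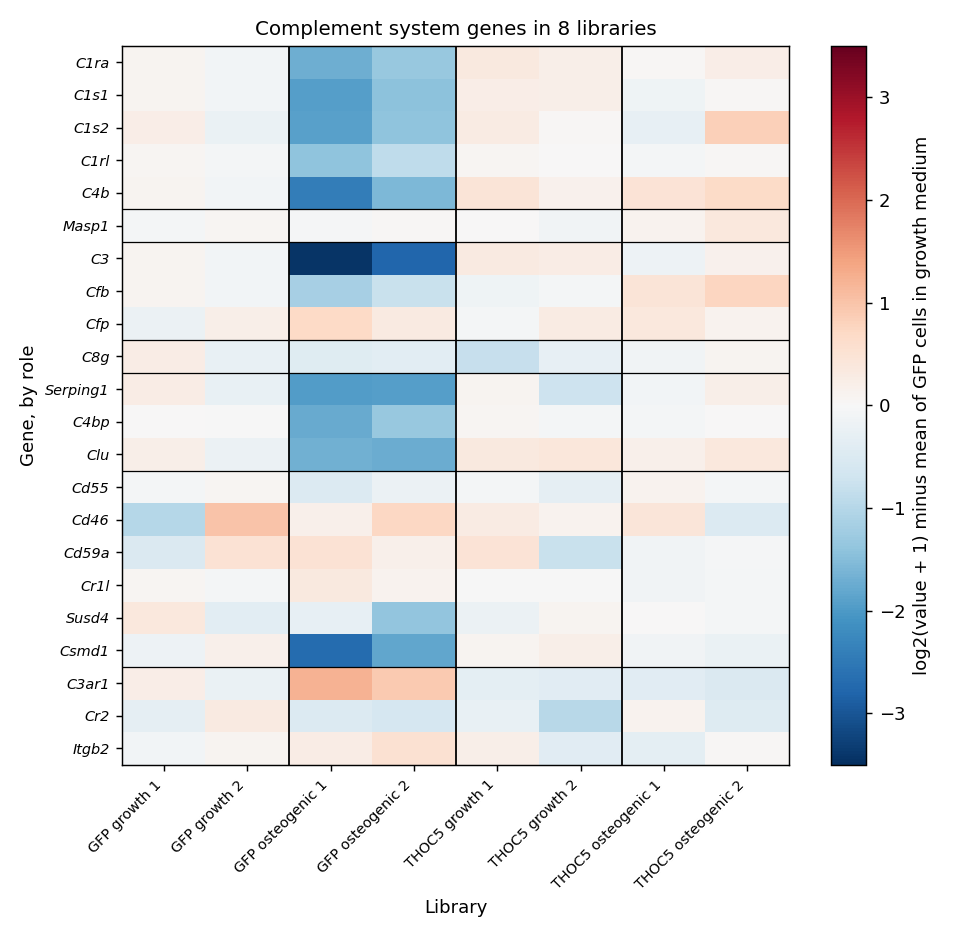
Complement genes with a mean of at least 10 normalized counts (22 genes in rows, grouped by role) in the 8 libraries (columns), coloured by log2(value + 1) minus the mean of the GFP libraries in growth medium. The 2 columns of the GFP osteogenic group hold the lowest value, -3.43 for C3, and the highest, 1.22 for C3ar1.

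By role, the falls in GFP cells were in the classical pathway (5 of 8 genes tested) and among the secreted regulators (3 of 5), where 10.6% of all genes fell. These counts include C4b, C1ra, C1s1 and Serping1, which were picked with earlier results known. Beyond them the classical pathway falls were C1rl and C1s2, and those of the secreted regulators Clu and C4bp. The C3 and alternative pathway group had 1 fall in 4 genes, the membrane regulators 1 in 6, the lectin pathway 0 in 4 and the terminal pathway 0 in 2, with 0 at an unadjusted p under 0.05 in limma in these last groups. Of 3 receptor genes 1 rose. Clu, which encodes clusterin, an inhibitor of the terminal complex, stood at 10755 and 7968 in the GFP growth group, 2864 and 2758 in the GFP osteogenic group, 11678 and 12136 in the THOC5 growth group and 10516 and 11995 in the THOC5 osteogenic group. It fell 3.29-fold in GFP cells (log2 -1.72 ± 0.13, adjusted p = 1.02e-05). C4bp, which encodes the C4b-binding protein, fell 2.93-fold (log2 -1.55 ± 0.13, adjusted p = 1.73e-05). The falls thus included transcripts of activating proteases and transcripts of inhibitors. C1rl, a C1r-like gene 1.76 kb from C1ra, fell 2.23-fold (adjusted p = 2.65e-04). Masp1, a protease gene of the lectin pathway, stood at 1605 to 2236 normalized counts in all 8 libraries, and its change in GFP cells was -0.01 ± 0.10 (adjusted p = 0.967). The terminal components Hc, which encodes C5, and C6 were at or under 3 reads in every library, and C8g, of the same pathway, had 12 to 24 reads.

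Adventitial fibroblasts are a known source of complement in the arterial wall, and 4 of their 8 markers, Pdgfra, Dcn, Lum and Serpinf1, also fell in GFP cells, where 10.6% of all genes did. Ly6a, also on that list, missed the threshold in GFP cells, at 0.16 ± 0.12 on the log2 scale (adjusted p = 0.402), and rose in THOC5 cells by 0.92 ± 0.12 (adjusted p = 0.00408). Their summed normalized count was 17091 to 19543 in the GFP growth group, 6961 to 9485 in the GFP osteogenic group, 20884 to 21728 in the THOC5 growth group and 19133 to 20342 in the THOC5 osteogenic group, and Dpt stood at or under 3 reads in every library. Of the 9 smooth muscle markers 7 fell and 0 rose past the threshold in GFP cells, against the same 10.6% that fell. Des (means of 9.98 in growth and 22.4 in osteogenic medium) and Myocd (12.6 and 15.8) had higher means in osteogenic medium. The summed count of these markers given above was mostly Acta2, with means of 21362 in the GFP growth and 10332 in the GFP osteogenic group. The 4 endothelial markers with a row, of 6 listed, summed to 75.8 to 117 normalized counts in the GFP growth group, 36.7 to 55.4 in the GFP osteogenic group, 90.7 to 121 in the THOC5 growth group and 83.5 to 87.2 in the THOC5 osteogenic group. Of these Vwf fell in GFP cells (log2 -2.69 ± 0.27, adjusted p = 5.43e-05), and Kdr, with means of 9.31 in growth and 22.8 in osteogenic medium, did not pass (adjusted p = 0.0618). The part of these 3 marker sets in the result was not tested.

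Among 6 genes of transcription factors known at complement promoters, 3 fell and 1 rose in GFP cells, where 10.6% of all genes fell and 10.3% rose. Cebpd, encoding C/EBP delta, stood at 2017 and 1861 normalized counts in the GFP growth group, 615 and 820 in the GFP osteogenic group, 1984 and 2147 in the THOC5 growth group, and 1996 and 2181 in the THOC5 osteogenic group. The GFP libraries in osteogenic medium were lowest, without overlap, as for C3. Cebpd fell 2.73-fold in GFP cells (log2 -1.45 ± 0.12, adjusted p = 2.15e-05), its change in THOC5 cells was 0.02 ± 0.12, and the difference between the responses was 1.46 ± 0.17 (adjusted p = 9.02e-04). Cebpb, the related C/EBP beta, did not pass in GFP cells (-0.24 ± 0.13, adjusted p = 0.240). Stat3, which carries interleukin-6 signals, fell in GFP cells (log2 -0.66 ± 0.08, adjusted p = 3.05e-04), as did Nfkb1 (-0.47 ± 0.09, adjusted p = 0.00420). Irf1 rose in GFP cells (0.47 ± 0.13, adjusted p = 0.0216). Between THOC5 and GFP cells in osteogenic medium, 5 of the 6 passed as higher in THOC5 cells, where 11.3% of all genes did. They were Cebpd, Cebpb, Stat3, Nfkb1 and Rela.

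**Figure D4:**
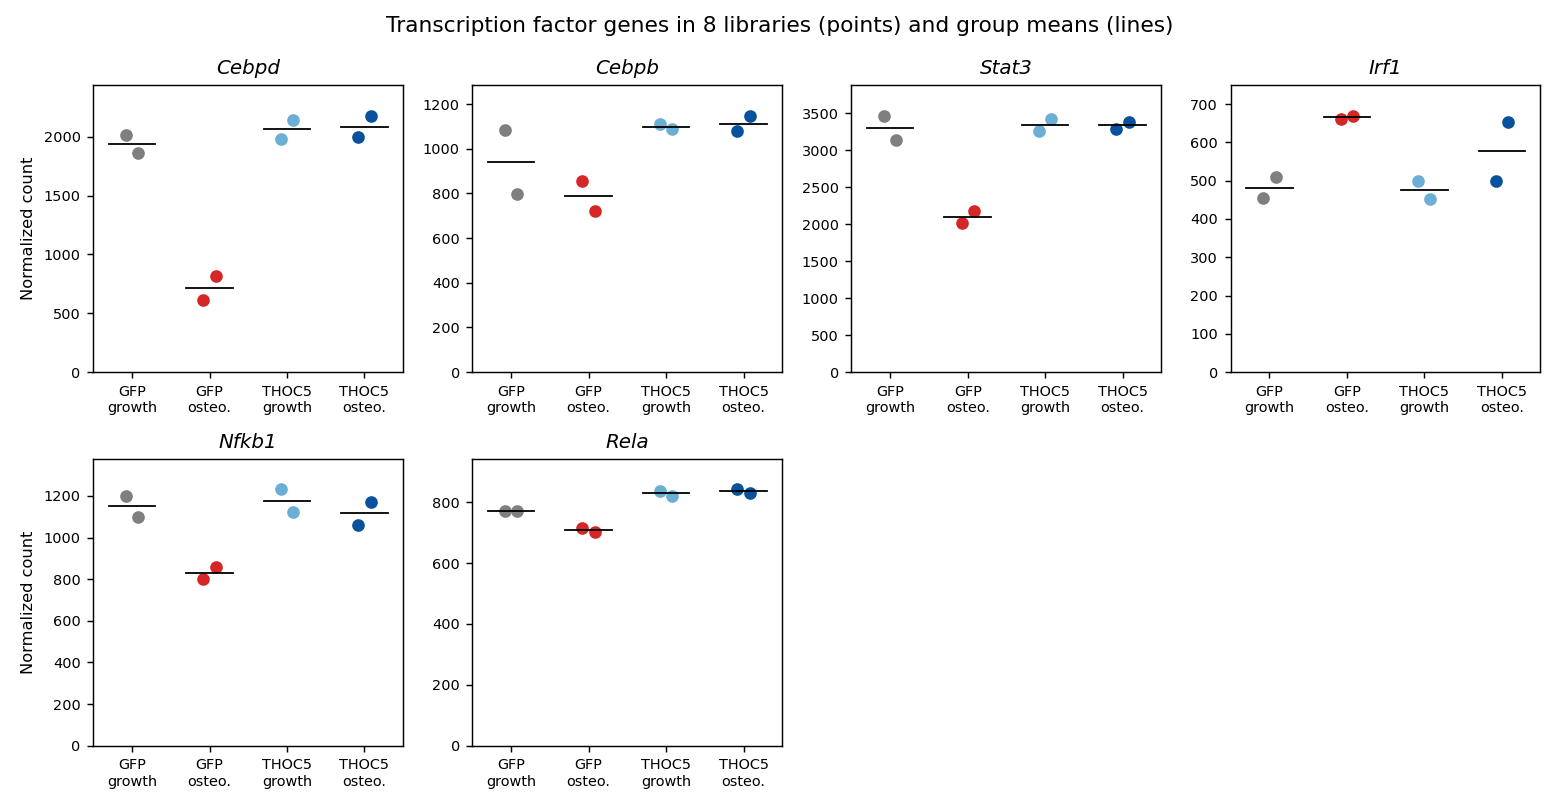
Normalized count of 6 transcription factor genes on linear axes from 0, with 1 point per library and a line at each group's mean. Cebpd stood at 615 and 820 in the GFP osteogenic group and at 1861 or more in the other 6 libraries. Stat3, Nfkb1 and Rela were also lowest in the GFP osteogenic group, without overlap. Of all genes, 28.9% lay below both GFP growth libraries in that group. This is a looser order than lowest of all 8 libraries, whose share is not given here. Rela, with means of 771 in the GFP growth and 708 in the GFP osteogenic group, did not pass in GFP cells.

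The genes with levels most like each complement gene over the 8 libraries were taken from 10332 genes with a mean of at least 50 normalized counts. For C3 they were Cp, encoding ceruloplasmin, a plasma copper protein, and Smoc1 (r = 0.999 each). For C1s1 they were Tnc, encoding the matrix protein tenascin C, and Svep1 (r = 0.9997 and 0.999), for C1ra Col4a1, a basement membrane collagen gene, and Nuak1 (0.999 and 0.998), and for C4b Heg1 and Npy4r (0.994 and 0.993). Those of Serping1 were Bbs9 and Tns1 (0.988 and 0.981), those of Cfb Poc1b and Tuft1 (0.995 and 0.978), and those of Cd55 Trip12 and Git2 (0.957 and 0.944). C3ar1 was matched by Tuba4a and Fam171b (0.990 and 0.988). The mean of Cp was 7911 normalized counts in the GFP growth group, 2414 in the GFP osteogenic group, and 8419 and 7691 in THOC5 cells in growth and osteogenic medium.

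In the authors' deposited table the same 5 genes were lower and C3ar1 was higher in the GFP osteogenic group at an adjusted p under 0.05. There Cfb stood at -1.08 (adjusted p = 0.305) and Cd55 at -0.35 (adjusted p = 0.0616). For the THOC5 against the GFP osteogenic group, the authors' deposited table gave all 8 genes below 0.05, with Cfb at 1.72 (adjusted p = 0.0476) and Cd55 at 0.38 (adjusted p = 0.0324).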

How the data were processed

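RNA from 8 libraries was sequenced, and groups were taken from the sample titles and columns from the label descriptions. The authors deposited a signal per gene, reads over a size factor of each library, and multiplying back gave whole reads for 100% of values within 1e-06. The deposited log2 changes, scores and adjusted p-values are the authors' own. FastQC, Bowtie2, MACS2, SAMtools and mm10 are named, without roles, in the submitters' processing notes. The counting step is not given in the sources used here.

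Values were tested as log2(value + 1) with limma 3.58.1 in R 4.3.3, with 1 fit over all 4 groups (4 residual degrees of freedom), a mean trend and Benjamini-Hochberg adjustment per comparison, threshold 0.05. Genes needed a value of at least 1 in 2 libraries. Folds are on that scale and understate changes of low genes. edgeR 4.0.16 and DESeq2 1.42.0 on the recovered reads were alternatives, as were pseudocounts, filters, scaling, a replicate block and leaving out each library. The test was checked on simulated data.

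All gene lists, like the 8 genes, were chosen with earlier results of these data known. Some list genes are not reported here and are left out of the lists' counts. Genes named beside the 8 were Thoc5, list members past the threshold or naming a role, the 2 genes most correlated with each, and the listed factors and markers. Coordinates are from GENCODE M21. Figures were drawn with matplotlib 3.10.9 in Python 3.11.15.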

Additional observations from a re-analysis of the deposited data

Results flagged for a closer look

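The responses of THOC5 and GFP cells to osteogenic medium differed, by the interaction test in limma, for 10 of the 32 genes tested in the complement list and 2 of the 6 transcription factor genes, where 9.22% of all genes passed. Marker genes and genes of like levels are not counted here. The THOC5 response was higher on the log2 scale by 2.80 for C3, 2.32 for Serping1, 2.28 for C4b, 1.39 for C1ra and 1.39 for C1s1, and it differed by -1.14 for C3ar1. Among the other complement genes the differences were 1.10 for C1rl, 1.52 for C4bp, 1.64 for Clu and 1.92 for Csmd1. Among the transcription factor genes they were 0.65 for Stat3 and 1.46 for Cebpd. With GFP growth replicate 1 left out, none of all genes tested passed, which takes these 12 with it. With 2 libraries in a group no library can be tested for standing apart.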

How the results depend on the processing

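For the 8 genes in 6 comparisons, 20 of 48 results passed. The alternative fits gave 808 values for these 48 results, 1 per gene, comparison and setting, and 0 of the 808 reversed a call. Some settings, such as another filter, leave the log2 change as it was, so no reversal was possible there. In 29 of the 808 a call was lost and in 7 one was gained. A further 12 values that passed in neither fit changed sign. In GFP cells the 6 calls were kept under every alternative run, with C3 between -3.43 and -2.76 and C4b between -2.43 and -1.58 when 1 library was left out. Scaling to library totals moved the median of all genes to 0.13 in GFP cells, -0.16 between THOC5 and GFP cells in osteogenic medium and -0.10 in the interaction. It changed the genes called higher and lower from 2314 and 2384 to 3721 and 1688 in GFP cells, and from 2550 and 2413 to 1662 and 4066 in osteogenic medium, and from 1197 and 885 to 886 and 1382 in the interaction. Cfb (adjusted p = 0.0375) and Cd55 (0.0268) passed the interaction with a filter of at least 10, as did Cd55 in GFP cells (0.0308).

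The count of all genes that passed fell from 4698 to 2293 in GFP cells, from 4963 to 3030 between THOC5 and GFP cells in osteogenic medium, from 122 to 0 in THOC5 cells, from 1 to 0 in growth medium and from 81 to 0 for THOC5 cells in osteogenic against GFP cells in growth medium when only the groups compared were fitted, and that of the complement list from 14 to 9 in osteogenic medium. With any value above 0 admitted, it was 37 in THOC5 cells, 0 in growth medium, 1122 in the interaction and 7 in the last comparison. Leaving out 1 library gave 2067 to 4496 in GFP cells, 8 to 106 in THOC5 cells, 0 to 1 in growth medium, 1987 to 4753 in osteogenic medium, 0 to 1751 in the interaction and 0 to 58 in the last comparison. In the interaction it gave 0 to 7 of the 8 genes and 0 to 11 of the complement list. The labels do not say whether replicate numbers pair libraries. Differences between replicates correlated at 0.40 between the GFP growth and THOC5 growth groups, over 10594 genes. Between the other pairs of groups the correlations were -0.19 to 0.14. With the replicate block the 8 genes gave 6, 0, 0, 8, 6 and 0 calls in the 6 comparisons, as without it. Depth limited Cfb most, at 6 to 24 reads.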
